A study of Mus musculus with 7 samples.

Results

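The 34 genes described here encode enzymes and regulators of cholesterol and fatty acid synthesis, listed by symbol as 20 genes of the sterol branch and 14 of the fatty acid branch, out of 46603 gene rows in the count tables. All 34 were found, and 33 passed the filter on low counts. The exception was Mlxipl, with 4 reads in all 7 libraries together. Polyadenylated RNA of TRAMP-C1, a mouse prostate tumour line labelled prostate epithelial and of strain C57BL/6-TgN(TRAMP)8247Ng, was sequenced as single-end reads of 50 bp. Every library therefore carries the TRAMP transgene background of that line. The libraries fall into 3 labelled "PAX8-NFE2L2 fusion+" (lentivirus Lv229 with the fusion gene), 3 labelled "Empty vector" (the matching virus without it) and 1 labelled "WT", whose label names no vector. By the treatment protocol, which is worded identically for all 7 samples, cells spent 12 h with virus and a further 24 h in fresh medium containing serum. No promoter, species of the fusion sequence or clone is given, and separate cultures are stated for no replicate, so the p-values speak only of spread among these libraries, some or all of which may be technical.

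Cholesterol is made from acetyl-CoA through 3-hydroxy-3-methylglutaryl-CoA, mevalonate, farnesyl diphosphate, squalene and lanosterol. Fatty acids are made from the same acetyl-CoA by way of malonyl-CoA, and are then elongated and desaturated. The transcription factors SREBP2 and SREBP1, encoded by Srebf2 and Srebf1, drive the genes of both branches, SREBP2 mainly those of the sterol branch and SREBP1 mainly those of the fatty acid branch. When membranes hold enough sterol, INSIG proteins keep the SREBP precursors in the endoplasmic reticulum. NRF2, the product of Nfe2l2, has been linked to lower lipid synthesis in liver. The comparison of fusion with empty vector is the purpose that the series states, and the question put to these genes is whether either branch moved with it.

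Gene counts per library lay between 26368182 and 59597170, with 21216 to 22697 genes detected. Both libraries numbered 3 were sequenced in other lanes than the rest, and in different lanes from each other. At these depths 3 reads, taken as the limit of a count of 0, correspond to 0.0503 to 0.114 CPM (counts scaled to library size with normalization factors), counting error only. Pax8 lay at 0.0334 to 0.217 CPM with empty vector and at 5.58 to 8.54 CPM with the fusion (log2 fold change 6.25, edgeR adjusted p = 0.0033), while Nfe2l2, the other gene of the fusion, lay at 111 to 125 and at 123 to 145 CPM and was not called (0.19, adjusted p = 0.885). Reads of the construct and of the mouse genes cannot be told apart. Of 14 prostate epithelial markers 7 stayed under 1 CPM in every library. Among them Epcam did not exceed 0.530 CPM, while the summed level of 10 mesenchymal markers lay at 13923 to 24521 CPM. Of 6 adipocyte markers 5 stayed under 1 CPM in every library, with Plin1 and Lep at 0, and the summed level was 1.77 to 5.10 CPM with empty vector and 3.62 to 10.6 CPM with the fusion. That sum was almost all Fabp4, a fatty acid carrier, which was called higher once libraries were paired by replicate number, as some members were. Of 6 hepatocyte markers 5 stayed under 1 CPM, while Apob lay at 2.36 to 8.05 CPM, and 0 were called. The part of such cells in the results was not tested.

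Most members were well expressed without the fusion. Levels were compared between genes per length, as CPM per kb of exon, with mean ± SD over 3 libraries. Scd2, a stearoyl-CoA desaturase that makes monounsaturated fatty acids, stood highest at 372 ± 76 with empty vector, above its relative Scd1 (126 ± 36.2) and above Acly, which makes cytosolic acetyl-CoA from citrate (113 ± 44.3). In the sterol branch the lanosterol demethylase Cyp51 led (112 ± 16.4), followed by the regulator Srebf2 (81.4 ± 24.7) and the epoxidase Sqle (78.9 ± 16.3), whose ranges overlapped. Next came the methylsterol oxidase Msmo1 (74.5 ± 8.37) and the synthase Hmgcs1 (68 ± 14.5), again within the spread of their neighbours. At the low end were the isomerase Idi1 (3.78 ± 0.472), the 7-dehydrocholesterol reductase Dhcr7 (6.01 ± 2.69) and the farnesyl diphosphate synthase Fdps (6.54 ± 1.67). This order depends on the length used, the union of all annotated exons, which can exceed that of a single transcript. In CPM with empty vector, Ebp (21.3 ± 6.37) lay below Fdps (27.5 ± 7.05) and Dhcr7 (34.9 ± 15.7). The cytosolic acetyl-CoA carboxylase Acaca lay at 2.31 ± 1.1 and its mitochondrial-surface relative Acacb, which is tied to the control of fatty acid oxidation, at 0.545 ± 0.384. Mlxipl, which encodes the carbohydrate-responsive factor ChREBP, had 1 read in the WT library, 1 in an empty vector library and 2 in a fusion library. Members listed as close relatives, such as Scd1 and Scd2, can be undercounted where reads match both.

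**Figure D1:**
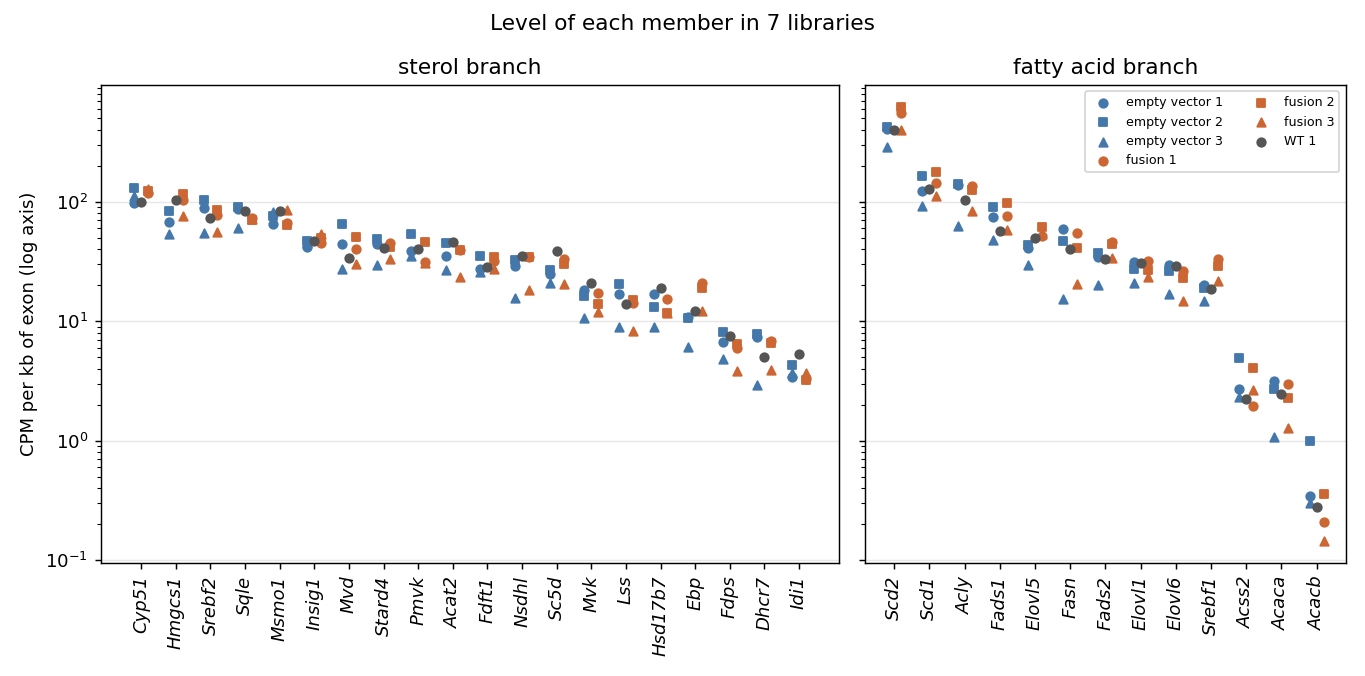
Level of the 33 members in each library as CPM per kb of exon, on a log axis, with members ordered by their mean over 7 libraries within each branch. Blue marks empty vector, orange fusion and grey WT, with circles, squares and triangles for replicate numbers 1, 2 and 3. Scd2 lies highest and Acacb lowest, and the triangles lie lowest for most members.

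No member was called between fusion and empty vector without the pairing of libraries by replicate number. In edgeR's quasi-likelihood test with Benjamini-Hochberg adjustment at 0.05, 0 of 20 sterol and 0 of 13 fatty acid members were higher or lower, against 1.69% of 16731 tested genes called higher and 0.353% called lower. Without adjustment 3 of the 33 had p under 0.05 (9.09%, against 10.9% of all genes), and the adjusted p ran from 0.256 to 1.00. DESeq2 called 0 of the 33 as well, 4 of them with unadjusted p under 0.05, while it called 5.51% of all genes. The median log2 fold change was -0.06 in the sterol branch, 0.04 in the fatty acid branch and 0.01 over all genes tested. Fitted values lay above 0 for 8 of 20 sterol and 8 of 13 fatty acid members. Leaving out 1 library moved these counts to between 6 and 14 sterol and between 5 and 11 fatty acid members: 14 and 11 when fusion replicate 3 was absent, 13 and 11 for empty vector replicate 2, and 6 and 5 for empty vector replicate 3. The balance of signs therefore rests on single libraries. The 95% intervals of 22 of 33 members, 17 sterol and 5 fatty acid, stayed within 1 log2 unit of no change on either side, so larger changes are outside the interval for those genes only.

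Libraries with the same replicate number deviated together, and with the replicate number as a block 6 members rose and 1 fell. These were Hmgcs1 and Ebp of the sterol branch and Srebf1, Elovl5, Scd2 and Fads2 of the fatty acid branch, which rose, and Acacb, which fell. That is 2 of 20 sterol members and 5 of 13 fatty acid members, beside 7.63% of all genes called higher and 5.5% called lower in the same fit. Without adjustment, 25% of sterol and 53.8% of fatty acid members had p under 0.05 in that edgeR fit, against 29.8% of all genes. The sterol shares are near those of all genes. The branches were not tested against each other. The block left the fold changes almost where they were, with medians of -0.03 and 0.08, and narrowed the error: the median SE over the 33 members went from 0.267 to 0.0965. Of the 33, 10 were higher with the fusion within all 3 numbers and 5 lower, where 27.8% and 24.6% of all genes tested did so. Groups did not overlap, with all fusion libraries above all empty vector libraries, for 3 members (Ebp, Srebf1 and Elovl5), beside 9.16% of all genes, and 0 members lay wholly below, beside 6.65%. The share of members wholly above is near that of all genes.

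**Figure D2:**
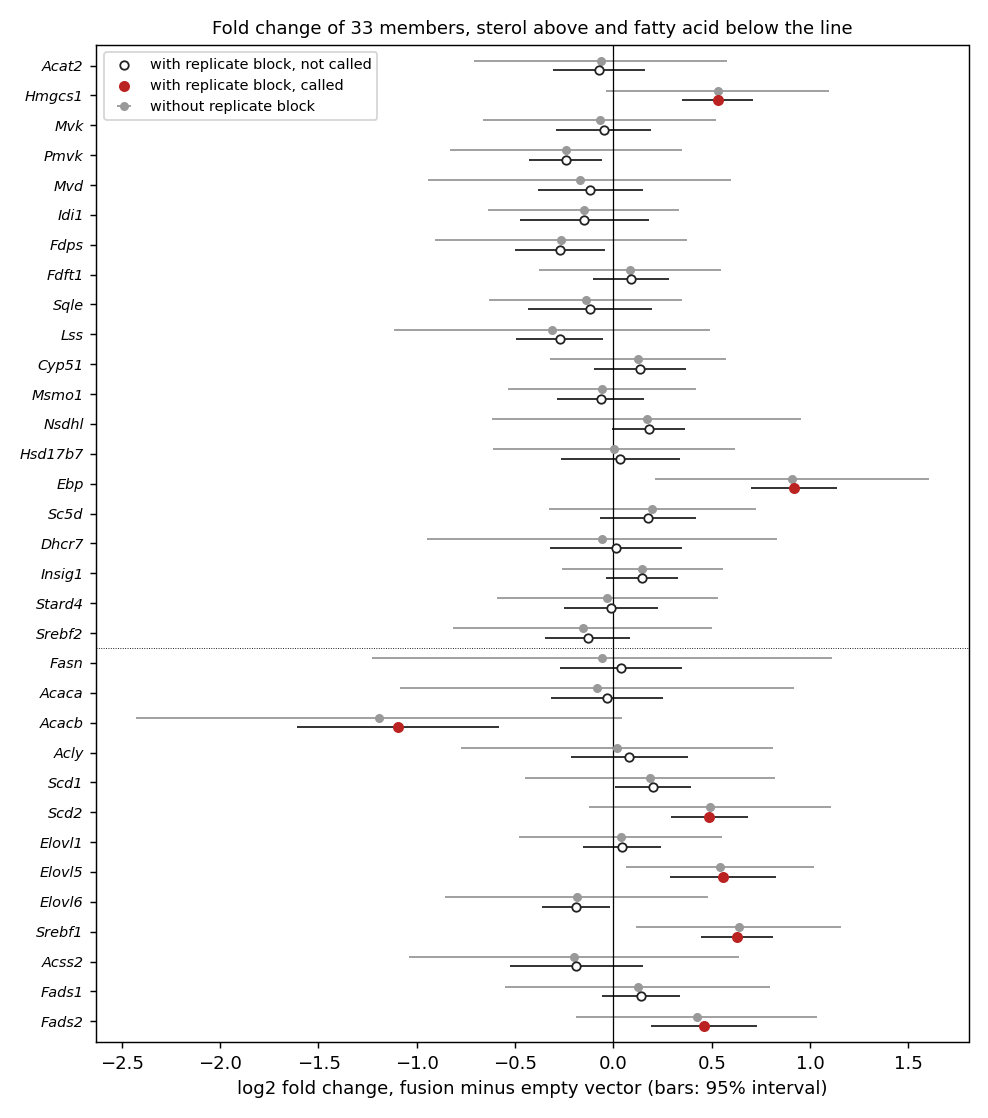
Log2 fold change of fusion minus empty vector for 33 members in pathway order, with bars for the 95% interval. Grey points come from the fit without the replicate block, and open or red points from the fit with it. Red marks the 7 members called with the block, and the narrower bars with the block show the smaller error.

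The sterol branch held 2 of the 7 calls with the block, at an early and a late step. Acat2, which joins acetyl-CoA units, lay at 90.9 ± 23.3 CPM with empty vector and 86.8 ± 23.5 CPM with the fusion (SD, n = 3). Hmgcs1, the synthase that forms 3-hydroxy-3-methylglutaryl-CoA (ENSMUSG00000093930.1, chromosome 13:119690379-119708260, plus strand, GRCm38), had 310, 380 and 247 CPM in empty vector replicates 1, 2 and 3. The fusion gave 470, 534 and 350 CPM in the same order, and WT 470 CPM. Each fusion library lay above the empty vector library of its number, but the groups overlapped, and the WT library lay in the range of the fusion. Its log2 fold change was 0.53 (SE 0.25, edgeR adjusted p = 0.508), and with the replicate block 0.53 (SE 0.075, adjusted p = 0.0085), a 1.44-fold rise. An antisense gene, Gm48342, overlaps its exons, and without a known strand setting their reads cannot be told apart. The same limit holds for the values of Idi1, Fdft1, Lss, Cyp51, Elovl1, Elovl6, Srebf1, Acss2 and Mlxipl, 10 of the 34 members in all.

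The kinases and the decarboxylase that turn mevalonate into isopentenyl diphosphate were not called. Mvk had a log2 fold change of -0.07, Pmvk of -0.24 and Mvd of -0.17, and none was called in either fit. The isomerase Idi1 (-0.15) and the prenyl synthase Fdps (-0.27) also had fitted values below 0, and Pmvk and Fdps were lower in all 3 numbers without passing either test. At the squalene steps Fdft1 had 0.08, Sqle -0.14 and Lss, the cyclase that closes lanosterol, -0.31. Lss held 181, 223 and 95.6 CPM in empty vector replicates 1, 2 and 3, while the fusion gave 152, 162 and 89.2 CPM and WT 150 CPM. Its groups overlapped, each fusion library lay under its empty vector partner, and neither fit called it (SE 0.35, edgeR adjusted p = 0.925, and 0.103 with the replicate block).

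Among the enzymes that convert lanosterol to cholesterol, Ebp stood apart from its neighbours in the pathway by its call. Ebp, the sterol isomerase that moves the ring double bond (chromosome X:8185329-8193512, minus strand), had 25.2, 24.7 and 13.9 CPM in empty vector replicates 1, 2 and 3. The fusion gave 48, 43.7 and 28.1 CPM in the same order, and WT 28 CPM. The groups did not overlap, and the WT library lay between them. The log2 fold change was 0.91 (SE 0.30, edgeR adjusted p = 0.256), and with the replicate block 0.92 (SE 0.091, adjusted p = 0.0027), a 1.89-fold rise. It was called by the block with any single number left out too (adjusted p = 0.00841, 0.0339 and 0.000932 without number 1, 2 and 3). The other enzymes of this stretch had smaller fitted values and were not called with all numbers in: Cyp51 0.13, Msmo1 -0.06, Nsdhl 0.17, Hsd17b7 0.00, Sc5d 0.20 and Dhcr7 -0.06.

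The regulators of the sterol branch showed no call. Srebf2 lay at 585 ± 177 CPM with empty vector and 525 ± 110 CPM with the fusion (SD, n = 3), a log2 fold change of -0.16 (SE 0.29). Insig1, whose own gene is a textbook SREBP target and whose product restrains the pathway, lay at 138 ± 8.52 and 153 ± 13.5 CPM (0.15, SE 0.18). Stard4, a carrier that moves sterol between membranes, lay at 228 ± 56.5 and 223 ± 35 CPM (-0.03, SE 0.24). For all 3 the fold change was under its standard error in the fit without the block, where that of Hmgcs1 and of Ebp was at least 2 standard errors. With the block this held for Stard4 only (-0.01, SE 0.099). Insig1 then had 0.15 (SE 0.076, edgeR adjusted p = 0.260) and was higher in all 3 numbers. Srebf2 had -0.13 (SE 0.089, edgeR adjusted p = 0.386).

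The fatty acid branch held the remaining calls. Srebf1 (chromosome 11:60199089-60222581, minus strand), the gene of SREBP1, had 113, 107 and 83 CPM in empty vector replicates 1, 2 and 3 and 104 CPM in the WT library. With the fusion it had 187, 162 and 122 CPM, above all 4 other libraries. Its log2 fold change was 0.64 (SE 0.23, edgeR adjusted p = 0.299), and 0.63 with the replicate block (SE 0.076, adjusted p = 0.0052), a 1.55-fold rise. Exons of Rai1 on the other strand overlap it, so its reads too cannot be assigned with certainty.

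The core synthesis enzymes that SREBP1 is known to drive were not called. Fasn, fatty acid synthase, had 640, 511 and 168 CPM with empty vector in order of number, 596, 450 and 222 CPM with the fusion and 436 CPM in WT. The libraries of number 3 were far below the others in both groups, and the fold change of -0.06 had an SE of 0.51, or 0.04 with an SE of 0.13 under the block. Acly had 0.02 (SE 0.35), Acaca -0.08 (SE 0.44) and Acss2, which makes acetyl-CoA from acetate, -0.20 (SE 0.36), and none was called in either fit with all numbers in. Acacb had few reads, with 3.33, 9.51 and 2.91 CPM for empty vector in order of number, 2, 3.46 and 1.38 CPM for the fusion and 2.71 CPM for WT. Each fusion library lay under its partner, and empty vector replicate 2 stood above the rest. The log2 fold change of Acacb was -1.19 (SE 0.54, edgeR adjusted p = 0.487) and -1.10 with the block (SE 0.21, adjusted p = 0.023). Without empty vector replicate 2 it was -0.44 in the fit with no block, and without both libraries numbered 2 the block gave -0.89 (adjusted p = 0.24), so this fall rests in part on that library.

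Elongases and desaturases accounted for 3 of the 4 rises called in this branch. Elovl5, which extends polyunsaturated fatty acids (chromosome 9:77917364-77984519, plus strand), had 145, 151 and 105 CPM in empty vector replicates 1, 2 and 3 and 174 CPM in the WT library. With the fusion it had 182, 214 and 188 CPM, above every other library, and the fold change was 0.54 (SE 0.21, edgeR adjusted p = 0.354), or 0.56 with the block (SE 0.11, adjusted p = 0.025). Scd2 had 2226, 2320 and 1559 CPM in empty vector replicates 1, 2 and 3, while the fusion gave 3036, 3400 and 2150 CPM and WT 2152 CPM. Every number showed a higher fusion value, but fusion replicate 3 lay below empty vector replicates 1 and 2. Scd2 had a fold change of 0.49 (SE 0.27, edgeR adjusted p = 0.621, and 0.014 with the block).

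Fads2, the desaturase that starts the conversion of essential fatty acids, had 114, 122 and 66.4 CPM in empty vector replicates 1, 2 and 3 and 150, 145 and 112 CPM with the fusion, against 109 CPM in the WT library. The groups overlapped through fusion replicate 3, and the fold change was 0.42 (SE 0.27, edgeR adjusted p = 0.722), or 0.46 with the block (adjusted p = 0.044). Its partner Fads1 (0.12) and the desaturase Scd1 (0.19) were higher in all 3 numbers without being called, Elovl6, which extends palmitate, was lower in all 3 (-0.19) without a call, and Elovl1 had 0.04. Leaving both libraries of a number out of the block fit ended calls by number 2 most often. Without number 2 only Ebp of the 7 was called, and 2.46% of all genes. The log2 fold changes of the rest were then 0.55 for Hmgcs1 (edgeR adjusted p = 0.0838), 0.64 for Srebf1 (0.0628), 0.59 for Elovl5 (0.149), 0.46 for Scd2 (0.136), 0.57 for Fads2 (0.109) and -0.89 for Acacb (0.24). Without number 1, where 9.2% of all genes were called, Scd2 (0.0532) and Fads2 (0.127) lost their calls. Without number 3, where 19% of all genes were called, all 7 were called, together with Lss (log2 fold change -0.34, adjusted p = 0.0427) and Acss2 (-0.36, adjusted p = 0.0408), both lower. These 3 subsets were fitted after the data had been seen.

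**Figure D3:**
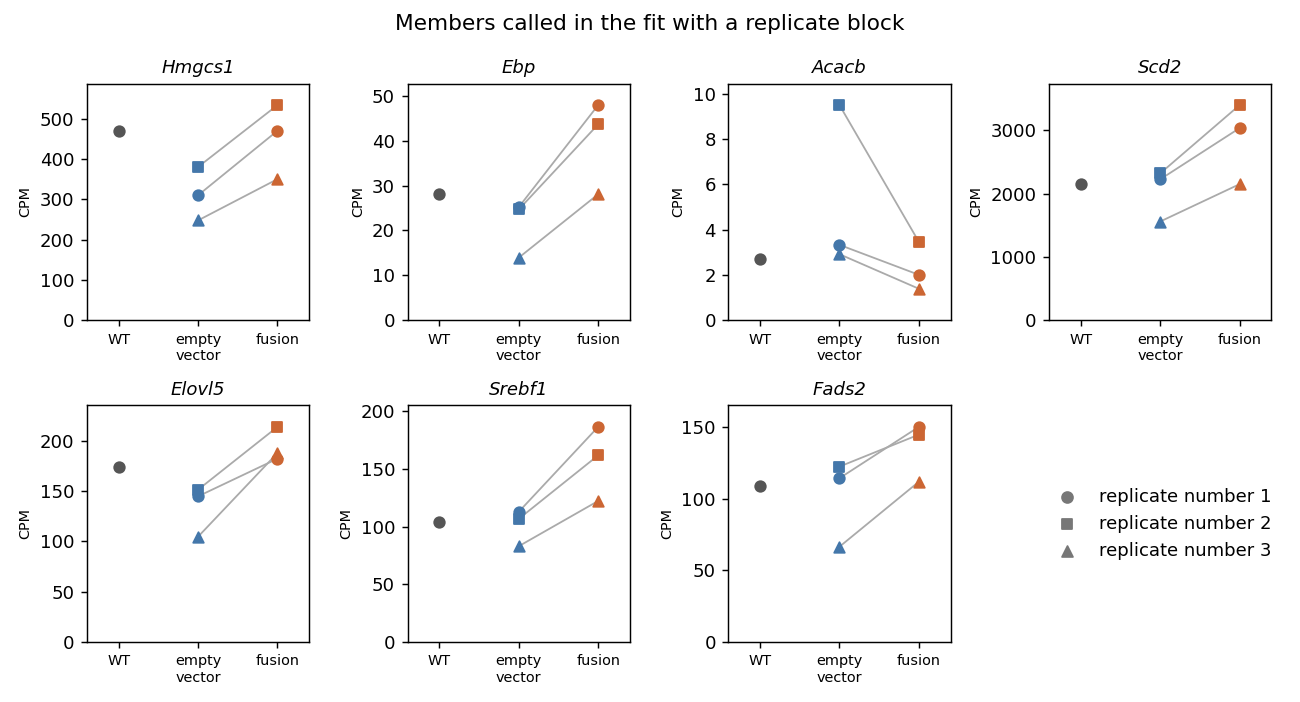
CPM of the 7 members called with the replicate block, from 0, in the WT library (grey), the 3 empty vector libraries (blue) and the 3 fusion libraries (orange), with lines joining libraries of the same number. All lines rise from empty vector to fusion except those of Acacb, which fall.

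Upstream sequence is shown for a selection of the called members, Hmgcs1, Ebp and Elovl5, and for Fasn, which was not called. Each of them carried the NF-Y box, so the box does not separate called from uncalled members. The called members Srebf1 and Acacb, not shown, carried it too. RefSeq promoter windows (GRCm38.p6, 250 bases before to 50 after a start) were matched for 27 of the 34 members. Shown are the 200 bases before the start, read 5′ to 3′ on the strand of the gene: Hmgcs1 at chr13:119690151-119690350 (plus), Ebp at chrX:8193513-8193712 (minus), Elovl5 at chr9:77917165-77917364 (plus) and Fasn at chr11:120824548-120824747 (minus). Capitals mark matches, on either strand, to a form of the SREBP site (TCACNCCAC), the NF-Y box (CCAAT, or ATTGG on the other strand), the core of the antioxidant response element bound by NRF2 (TGACNNNGC) and the E-box (CACGTG).
Hmgcs1: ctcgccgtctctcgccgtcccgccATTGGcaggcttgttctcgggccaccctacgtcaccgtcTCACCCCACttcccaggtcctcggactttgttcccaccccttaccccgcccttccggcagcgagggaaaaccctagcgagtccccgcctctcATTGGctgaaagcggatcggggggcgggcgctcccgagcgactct
Ebp: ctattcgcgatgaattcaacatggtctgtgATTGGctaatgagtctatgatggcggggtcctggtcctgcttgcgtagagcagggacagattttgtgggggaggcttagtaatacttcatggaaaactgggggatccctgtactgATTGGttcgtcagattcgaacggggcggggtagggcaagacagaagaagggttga
Elovl5: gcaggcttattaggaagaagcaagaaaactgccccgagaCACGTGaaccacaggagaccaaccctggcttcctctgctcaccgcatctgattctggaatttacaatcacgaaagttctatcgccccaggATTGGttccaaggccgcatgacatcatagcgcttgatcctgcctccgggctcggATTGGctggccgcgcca
Fasn: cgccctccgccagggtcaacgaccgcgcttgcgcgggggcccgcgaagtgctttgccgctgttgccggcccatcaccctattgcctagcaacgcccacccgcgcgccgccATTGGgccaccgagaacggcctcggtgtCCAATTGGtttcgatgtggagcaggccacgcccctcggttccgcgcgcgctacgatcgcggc

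The run of 8 capitals in Fasn is a pair of NF-Y boxes on opposite strands that overlap. Hmgcs1 held the SREBP form 137 bases before its start, and Elovl5 an E-box 161 bases before. NF-Y factors are known partners of SREBP at sterol gene promoters. The NF-Y box was in the window of 15 of 16 sterol members (93.8%) and 8 of 11 fatty acid members (72.7%), against 41.1% of 27025 genes in the table. The SREBP form was in 1 of 16 (Hmgcs1) and 1 of 11 (Mlxipl), against 1.44% of genes, and the E-box in 4 of 16 and 2 of 11, against 8.09%. Mlxipl, which had too few reads to be tested, is also among the fatty acid members counted for the NF-Y box and the E-box. The antioxidant response element core was in 4 of 16 sterol members (25%) and 1 of 11 fatty acid members (9.09%), against 14% of genes. The 4 were Pmvk, Mvk, Hsd17b7 and Dhcr7 and the 1 was Acss2, and none of them was called with all numbers in. A match is a description of these windows only, and whether TRAMP-C1 cells use these starts was not tested.

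Replicate number separated the libraries more than the fusion did in these genes. The level of a branch, taken as the mean log2(CPM + 0.5) of its tested members minus its mean over 7 libraries, stood for sterol genes at 0.04, 0.24 and -0.41 with empty vector, in order of number. With the fusion it stood at 0.11, 0.13 and -0.26, and in WT at 0.15. For the fatty acid branch it was 0.14, 0.32 and -0.60 with empty vector, 0.20, 0.29 and -0.32 with the fusion and -0.03 in the WT library. Libraries numbered 3 were lowest in both groups and both branches, and the groups overlapped in both branches.

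**Figure D4:**
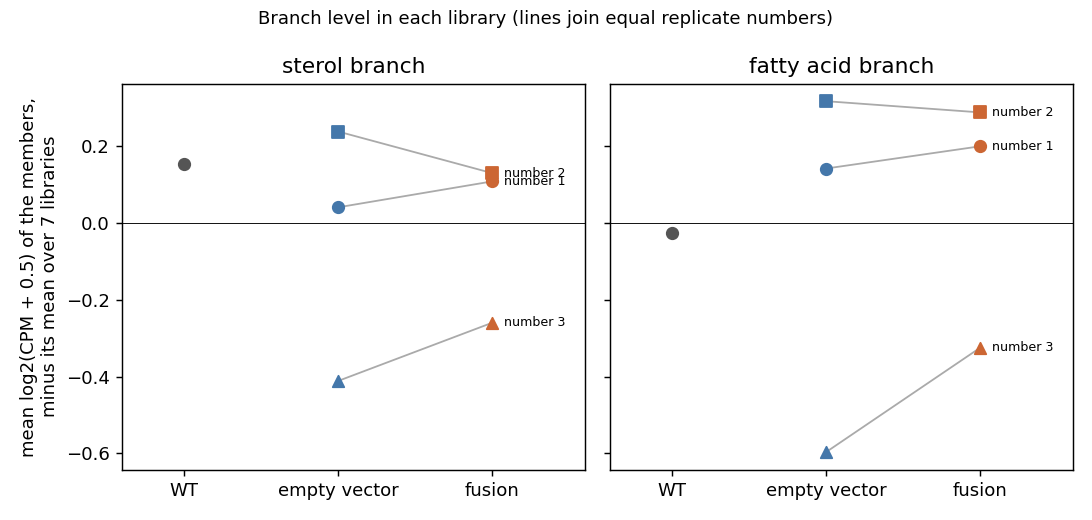
Branch level in each library, as the mean log2(CPM + 0.5) of the tested members minus its mean over 7 libraries, for the sterol branch (left, 20 members) and the fatty acid branch (right, 13 members). Lines join libraries of the same number. The pair numbered 3 lies between -0.60 and -0.26, below all other libraries.

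Gene by gene, 26 of 33 members were lowest in the library numbered 3 of both groups, 15 of 20 sterol and 11 of 13 fatty acid members, against 27.8% of all genes tested. The median difference of number 3 from numbers 1 and 2, averaged over both groups, was -0.51 on the log2(CPM + 0.5) scale for sterol members and -0.61 for fatty acid members, against -0.02 for all genes. Fasn (-1.49), Acaca (-1.22) and Dhcr7 (-1.06) differed most, whereas Msmo1 (0.31), Insig1 (0.11), Idi1 (0.05) and Cyp51 (0.03) did not fall below 0. The count row for reads with several alignments held 44.8 to 45.3% of all counts in the libraries numbered 3 and 36.1 to 38.9% in the others. A read can enter that row more than once, so this is not a share of reads. Lane, depth and the share of that row move with the number, and their part in the difference was not tested. Within number 3, empty vector was in lane 1 with 40089266 gene counts and the fusion in lane 2 with 26368182. In that pair lane and depth therefore differ between the groups as well, and cannot be told apart from the fusion. In bulk RNA fewer cells that make a transcript and less of it per cell cannot be told apart. The fit with the block holds the number as a term of its own, but none for the lanes within number 3.

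**Figure D5:**
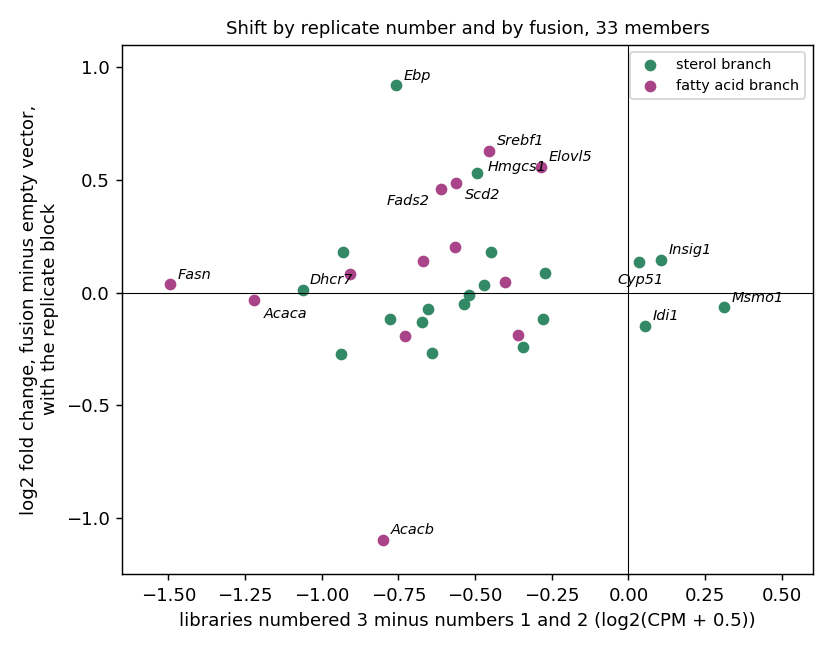
For each of 33 members, the difference of libraries numbered 3 from numbers 1 and 2 on the log2(CPM + 0.5) scale (horizontal) against the fusion minus empty vector log2 fold change with the replicate block (vertical). Most members lie left of 0, down to -1.49 for Fasn, with the 6 called members that rose in the upper part and Acacb at the bottom.

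The WT library lay above all empty vector libraries for part of the sterol members, but not for the branch as a whole. Its sterol branch level (0.15) lay between those of empty vector replicates 1 (0.04) and 2 (0.24), with replicate 3 far below (-0.41). The sterol median of empty vector minus WT was -0.13, and -0.05 without both libraries numbered 3. Gene by gene, the WT library was above every empty vector library for 9 of 20 sterol members and below for 0. For the fatty acid branch it was above for 1 and below for 2 of 13. Over all genes tested it was above for 3800 and below for 3612 of 16731. The sterol members with the largest fitted differences of empty vector minus WT were Sc5d (-0.67), a desaturase, with 188 CPM in WT against 118 ± 14.6 CPM, and Hmgcs1 (-0.59). With 1 WT library, assumed to vary like the other groups, edgeR called 0 of 33 members and 0% of all genes for empty vector against WT, with 0 members and 746 genes at unadjusted p under 0.05. With the block it called 0 members and 0.12% of genes.

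Fusion against WT gave 0 of 33 members called, 0 of them with unadjusted p under 0.05, beside 0.436% of all genes. With the block 2 members were higher, beside 9.81% of genes called in either direction: Srebf1 (log2 difference 0.80, edgeR adjusted p = 0.017) and Ebp (0.77, adjusted p = 0.028). For Hmgcs1 the same fit gave -0.03, since WT and fusion lay together. In both comparisons with WT, the block placed the WT library in number 1 by its title, and whether it belongs with that number was not tested. The comparisons share libraries, so these values are set side by side and are not independent.

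Other genes of lipid metabolism were read in 7 lists from the same fit, in which 1.69% of all genes were called higher and 0.353% lower, or 7.63% and 5.5% with the block. Among 16 genes of cholesterol uptake, esterification and transport 1 rose and 1 fell. Lrp8, a lipoprotein receptor family member, rose from 79.1 ± 31 to 257 ± 59.2 CPM, by 1.70 on the log2 scale (edgeR adjusted p = 0.049), and WT held 80 CPM. Cyp27a1, which makes 27-hydroxycholesterol, fell from 3.2 ± 1.4 to 0.49 ± 0.177 CPM (-2.72, edgeR adjusted p = 0.032), and WT held 0.0601 CPM. Both were called with the replicate block (adjusted p = 0.0013 and 0.0020), and Nceh1, a cholesteryl ester hydrolase, was then called too (0.57). Leaving out 1 library ended the call of Lrp8 in 3 and of Cyp27a1 in 5 of 6 fits with no block, with adjusted p up to 0.165 and 0.116.

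Among 16 tested genes of fatty acid activation, elongation and desaturation 1 rose and 0 fell. It was Elovl7, an elongase of long-chain fatty acids, at 5.24 ± 1.12 CPM with empty vector and 14.9 ± 1.71 CPM with the fusion (log2 fold change 1.5, edgeR adjusted p = 0.025), called in 1 of the 6 fits without a library (adjusted p up to 0.105 in the rest). With the block 4 rose and 2 fell: Elovl7 and the dehydratases of the elongation cycle Hacd3 (0.84) and Hacd4 (0.81) were among those that rose, and Elovl4 (-0.81) among those that fell. Lists of SREBP processing and sterol sensing (12 tested), the non-sterol isoprenoid branch (13), fatty acid synthesis supply and control (11), glycerolipid synthesis and lipid droplets (16) and fatty acid oxidation (22) had 0 calls without the block.

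With the block, Scap, the escort that carries SREBP to the Golgi, rose (0.56, edgeR adjusted p = 0.018), as did Ubxn8 (0.58, 0.041). Of the supply and control list 4 rose and 0 fell: Prkaa2, a catalytic subunit of AMP-activated kinase (1.40), Mid1ip1, an activator of acetyl-CoA carboxylase (0.46), the NADPH-making malic enzyme Me1 (0.43) and Aacs (0.40). In the glycerolipid list Lpin2 (0.54) and Gpam (0.47) rose while Lpin3 (-0.60) and Mogat2 (-2.23) fell. The oxidation list had 1 call, Cpt1a, which admits long-chain fatty acids to mitochondria, from 72.3 ± 20.4 to 125 ± 15.9 CPM (0.82 with the block, adjusted p = 0.0060). The isoprenoid list had 0 calls with the block. The medians of the 7 lists lay between -0.13 and 0.13 without the block, and the lists were described by counts and medians only.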

How the data were processed

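Gene counts were analysed for 7 RNA-seq libraries. The authors deposited raw read counts for every gene, 1 table per lane, obtained with STAR and HTSeq on GRCm38, per the submitters' processing notes. Not given in the sources used here: tool versions, annotation release and strand setting. The 12 lane tables were summed per library, after a chi-square check over genes (0.978 to 1.01 per degree of freedom between lanes, 108 to 311 between libraries within a group). Symbols came from the reference gene table (46005 of 46603 rows), and positions and union exon lengths from GENCODE M21 of GRCm38. Rows naming no gene stayed out. Of all counts, 5.73 to 6.93% stood for no gene, 1.22 to 1.48% for several genes, and 36.1 to 45.3% for alignment to several places. The 92 spike-in rows held at most 2 counts per library.

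Fusion was tested against empty vector in 6 libraries with edgeR 4.0.16 in R 4.3.3: TMM, filterByExpr (minimum count 10), robust quasi-likelihood F test, Benjamini-Hochberg at 0.05 over 16731 genes. The standard error is the absolute log2 fold change over the square root of F. WT comparisons used all 7 libraries and the same genes, and with the block the WT library entered as number 1. CPM use TMM factors over 7 libraries. DESeq2 1.42.0 was an alternative. Empty vector and fusion libraries of the same number deviated together from their group means (r = 0.659, 0.630 and 0.610 over 16731 genes for numbers 1, 2 and 3). Between numbers r was -0.53 to -0.0474. Deviations sum to 0 within a group, so positive values for equal numbers force those between numbers below 0 on average. The numbers were taken to pair the samples, from the values for equal numbers and no label. The fit without the block is the main one.

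Members and lists were chosen with earlier results of these data known. All 34 members are named. Those called with or without the block, and the 3 per branch with the largest absolute fold change, have values in every library. Of other lists at most 4 called genes are named, largest change first.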

Additional observations from a re-analysis of the deposited data

How the results depend on the processing

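Over the alternatives for fusion against empty vector, the count of members called without a replicate block stayed at 0 in both branches, and it moved only with the block: to 2 sterol and 5 fatty acid members with all numbers, 2 and 3 without number 1, 1 and 0 without number 2, and 3 and 6 without number 3, the last 3 fits being added after the data were seen. Against WT the block moved the counts from 0 to 1 sterol and 1 fatty acid member for the fusion. Over all genes the 341 calls became 2196 with the block, 922 with DESeq2, 530 with no filter on low counts, and 1537, 409 and 3200 with the block without number 1, 2 or 3. They ranged from 133 to 384 when 1 library was left out, with 133 without empty vector replicate 2, 196 without fusion replicate 1 and 148 without fusion replicate 2. Calls of empty vector against WT went from 0 to 20 and of fusion against WT from 73 to 1642 with the block. The cause of these moves was not tested. Without 1 library the sterol median lay between -0.21 and 0.13 and the fatty acid median between -0.11 and 0.25, so each changed sign in some of these fits. The shifts were smaller than the pooled SD of the branch level between libraries (0.28 and 0.42). Leaving out 1 library can hardly move a median by more, so this does not show that the medians are stable. Signs changed for 18 members, all within 0.2 of 0 in the main fit and called in neither fit with all numbers. Outside the fits without 1 library, Hsd17b7 changed to -0.008 with DESeq2 and with RLE size factors, -0.025 with upper quartile factors, -0.033 with no filter and -0.12 without both libraries numbered 3. Acly changed to -0.008 with upper quartile factors, -0.018 with no filter and -0.071 without both libraries numbered 3. With the block, Dhcr7 changed to 0.013 and Fasn to 0.038. With the block and no number 1, Fdft1 was -0.019, Dhcr7 0.029 and Fasn 0.064. With no number 2, Mvk was 0.025, Mvd 0.008, Sqle 0.002, Msmo1 0.032, Dhcr7 0.148, Stard4 0.106, Fasn 0.149 and Acaca 0.088. With no number 3, Acat2 was 0.001, Hsd17b7 -0.125, Acly -0.073 and Elovl1 -0.004.

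When 1 library was left out, the members whose sign changed in at least 1 such fit ranged as follows: Acaca -0.427 to 0.209, Acat2 -0.234 to 0.146, Acly -0.275 to 0.209, Acss2 -0.527 to 0.21, Dhcr7 -0.39 to 0.174, Elovl1 -0.114 to 0.175, Elovl6 -0.387 to 0.026, Fads1 -0.095 to 0.344, Fasn -0.445 to 0.324, Fdft1 -0.005 to 0.226, Hsd17b7 -0.209 to 0.244, Msmo1 -0.204 to 0.024, Mvd -0.437 to 0.175, Mvk -0.268 to 0.104, Nsdhl -0.087 to 0.416, Srebf2 -0.381 to 0.042, Stard4 -0.219 to 0.123.

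The block with all numbers changed no call of fusion against empty vector among members other than the 7 named. Mlxipl, at 4 reads in all, was too shallow to test.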
